A study of Mus musculus with 4 samples.

Results

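The nuclear genes of 9 tricarboxylic acid (TCA) cycle proteins, *Cs*, *Idh2*, *Idh3a*, *Ogdh*, *Dlst*, *Suclg1*, *Suclg2*, *Fh1* and *Mdh2*, were followed across 4 RNA-seq libraries of mouse neural progenitors. Members were taken by an exact match of the gene symbol, which found all 9 among the 21091 entries of each library, and all 9 passed a minimum mean of 1 FPKM (fragments counted per length of transcript and per number of fragments mapped), as 12449 entries did. The libraries were E11 WT, E11 *Stat3* cKO, E14 WT and E14 *Stat3* cKO, each from C57BL/6 embryonic brain, with 1 library per group. Brain cells taken at embryonic day 11 (E11) or 14 (E14) were grown for 3 days as floating neurospheres in serum-free medium with EGF and FGF, so that all groups share this culture. In *Stat3* cKO, Cre driven by a rat Nestin promoter and enhancer removes floxed exons of *Stat3* that encode its SH2 domain, and Nestin-Cre acts in neural progenitors and the cells that descend from them. The labels call the controls WT, whereas the animal methods of the study describe its controls as Nestin-Cre embryos with 1 floxed *Stat3* allele. How many embryos went into a library, and of which sex, was not given in the sources used here. Without replicates, no value below has an error, no difference could be set against a replicate spread, and no test was made. A call was an FPKM ratio of at least 2 in either direction, and the words rose and fell are kept for genes that reached it, while higher, lower, above and below give the order of levels without a call.

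The TCA cycle runs in the mitochondrial matrix. It oxidises the acetyl group of acetyl-CoA to carbon dioxide and passes the electrons, as NADH and reduced flavin, to the respiratory chain, while citrate and oxoglutarate drawn from it feed the synthesis of lipids and amino acids. Neural progenitors are known for a strong reliance on glycolysis, and oxidative metabolism is known to gain weight as they give rise to neurons. The 9 genes cover 6 of the cycle's steps: citrate formation (*Cs*), oxidation of isocitrate (*Idh2*, *Idh3a*), oxidation of oxoglutarate (*Ogdh*, *Dlst*), release of CoA from succinyl-CoA (*Suclg1*, *Suclg2*), hydration of fumarate (*Fh1*) and oxidation of malate (*Mdh2*).

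The genes lie on 8 chromosomes. The deposited loci are *Cs* at chr10:127774887-127799535, *Idh2* at chr7:87239733-87260236, *Idh3a* at chr9:54434317-54452469, *Ogdh* at chr11:6191599-6259097, *Dlst* at chr12:86451782-86475041, *Suclg1* at chr6:73198498-73226901, *Suclg2* at chr6:95424127-95668831, *Fh1* at chr1:177531508-177555766 and *Mdh2* at chr5:136254518-136266256. *Suclg1* and *Suclg2* thus share a chromosome but are not neighbours. The submitters' processing notes name both mm8 and mm9 without a role, and the start of each of the 9 listed loci differs from the RefSeq start on GRCm38.p6, so the coordinates above are given as listed.

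The 250 bases before the RefSeq start of a gene were read for letters of known transcription factor sites, since the 9 genes had values of the same direction in much of what follows. RefSeq promoters (GRCm38.p6) were matched by symbol for 8 of the 9 genes, with 13 windows in all because *Ogdh* has several starts; *Idh3a* had no entry. TTCNNNGAA, the palindromic core that STAT dimers are known to bind and the same on both strands, was in 7.02% of 32851 promoter windows and in 0 of the 13. CCAAT, bound by the trimeric factor NF-Y, and GGGCGG, bound by Sp1 and related factors, were searched on both strands, a choice made once the data were known. CCAAT was in 33.8% of all windows and in 8 of the 13, which belong to 5 of the 8 genes. GGGCGG was in 32.7% of all windows and also in 8 of the 13, which belong to 7 of the 8 genes. Some of the *Ogdh* windows overlap, so the 13 are not independent. A match of letters is not a bound site, and their absence from a window says nothing of the factor. The windows of *Cs*, *Dlst*, *Suclg2* and *Fh1*, printed 5′ to 3′ in the direction of the gene, are shown because no GENCODE M21 transcript of these genes starts inside them. A RefSeq start listed for *Dlst*, 85110822, does lie inside its window. Capitals mark CCAAT and GGGCGG on either strand, and in *Suclg2* a run of capitals holds overlapping copies of GGGCGG. *Cs* lies on the plus strand at chr10:128337477-128337726, *Dlst* on the plus strand at chr12:85110583-85110832, *Suclg2* on the minus strand at chr6:95718847-95719096 and *Fh1* on the minus strand at chr1:175625636-175625885.
Cs: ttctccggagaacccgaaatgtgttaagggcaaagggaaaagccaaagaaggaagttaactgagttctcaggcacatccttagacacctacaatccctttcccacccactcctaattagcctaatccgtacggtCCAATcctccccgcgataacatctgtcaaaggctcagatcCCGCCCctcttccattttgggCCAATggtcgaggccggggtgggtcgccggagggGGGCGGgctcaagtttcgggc
Dlst: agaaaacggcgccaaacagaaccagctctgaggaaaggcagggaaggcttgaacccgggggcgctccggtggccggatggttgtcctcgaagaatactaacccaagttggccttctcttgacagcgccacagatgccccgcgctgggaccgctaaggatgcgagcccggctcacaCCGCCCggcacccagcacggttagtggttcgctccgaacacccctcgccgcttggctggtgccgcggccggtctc
Suclg2: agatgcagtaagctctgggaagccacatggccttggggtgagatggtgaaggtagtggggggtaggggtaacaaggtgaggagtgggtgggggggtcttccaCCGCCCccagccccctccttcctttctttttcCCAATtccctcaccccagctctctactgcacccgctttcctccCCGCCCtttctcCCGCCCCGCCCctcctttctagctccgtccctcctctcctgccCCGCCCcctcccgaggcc
Fh1: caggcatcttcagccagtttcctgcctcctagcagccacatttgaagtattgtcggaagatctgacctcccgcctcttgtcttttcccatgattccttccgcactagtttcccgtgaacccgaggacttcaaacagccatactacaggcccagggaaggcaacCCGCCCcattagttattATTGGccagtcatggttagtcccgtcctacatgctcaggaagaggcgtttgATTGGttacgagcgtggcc

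*Stat3* itself was at 7.41 FPKM in E11 WT, 6.74 in E11 *Stat3* cKO, 27.6 in E14 WT and 9.55 in E14 *Stat3* cKO. The ratio of *Stat3* cKO to WT was thus 0.346 at E14 and 0.911 at E11. An FPKM of the whole gene also counts exons that are not deleted, so it cannot show the deletion, and the E11 library labelled *Stat3* cKO was not set apart from its control by this gene. The FPKM values of a library summed to between 806587 and 1461770, its 10 highest entries held 36.0% to 49.9% of that sum, and sequencing depth is unknown, so no counting interval is given. Progenitor markers were abundant in every library (8 genes, summed FPKM 1547, 1705, 7488 and 8121, in the order E11 WT, E11 *Stat3* cKO, E14 WT, E14 *Stat3* cKO). Those of microglia were at 0.289 to 3.05 (4 genes, with *Aif1* listed at 0 in E14 WT) and those of endothelium at 0.827 to 2.78 (3 genes). Mesenchymal markers (4 genes) were abundant at E11 as well, with sums of 978, 885, 11.4 and 8.28 FPKM in the same order. The Y-linked *Ddx3y* was at 25.1 FPKM in E14 *Stat3* cKO and at 0.0569 or less in the other 3 libraries, while *Xist* was at 0.0370 FPKM there and at 13.6 to 46.9 in the others. Sex and genotype therefore cannot be told apart at E14, nor sex and stage within *Stat3* cKO, and the difference between the genotype ratios of the 2 stages carries the same limit. In such bulk samples, fewer cells of a type and less RNA per cell cannot be told apart either.

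The levels of the 9 genes spanned about the same range in each library, with *Idh2* and *Cs* at the top and *Ogdh* at the bottom. The highest level was 10.3 times the lowest in E11 WT, 10.7 times in E11 *Stat3* cKO, 11.8 times in E14 WT and 11.6 times in E14 *Stat3* cKO, all on the FPKM scale, which is per length. The geometric mean over the 9 genes was 42.2, 47.7, 84.1 and 64.5 FPKM in that order. It was thus highest in E14 WT and lowest in E11 WT as deposited. As a share of each library's FPKM sum, the summed level of the 9 genes was 0.0512%, 0.0665%, 0.0658% and 0.0487%, and on that measure E11 *Stat3* cKO came first and E14 *Stat3* cKO last.

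**Figure D1:**
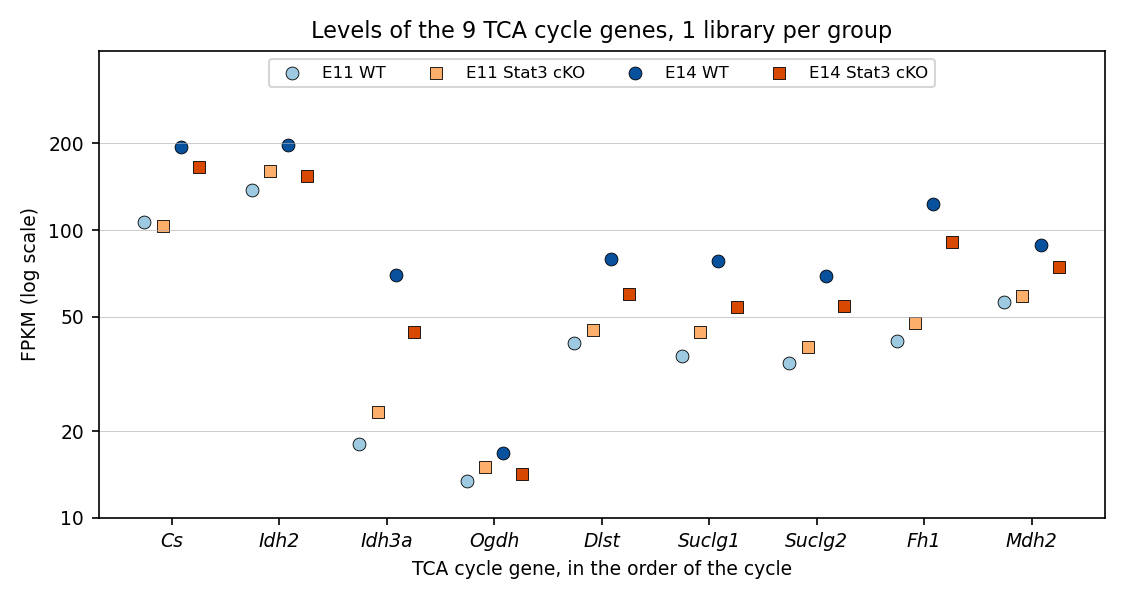
FPKM (log axis) of the 9 TCA cycle genes, in the order of the cycle, with 1 point per library and no error bars because each group is 1 library. E14 WT is the highest point of every gene, from 16.8 FPKM for *Ogdh* to 198 for *Idh2*, on the values as deposited; with the libraries set to equal FPKM sums it is not the highest for all of them.

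*Cs* encodes citrate synthase, which joins acetyl-CoA to oxaloacetate and so opens the cycle. *Cs* was at 107 FPKM in E11 WT, 103 in E11 *Stat3* cKO, 194 in E14 WT and 166 in E14 *Stat3* cKO. Both E14 libraries were above both E11 libraries as deposited, although with equal FPKM sums E14 *Stat3* cKO was below E11 *Stat3* cKO. *Cs* was the 2nd highest member except in E14 *Stat3* cKO, where it was the highest. Its paralog *Csl* was listed at 0.0365 to 0.131 FPKM, and how reads shared by the 2 were divided is not given in the sources used here.

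At the isocitrate step, *Idh2*, which makes oxoglutarate with NADP as its acceptor, was at 138, 160, 198 and 154 FPKM in the order E11 WT, E11 *Stat3* cKO, E14 WT, E14 *Stat3* cKO. The E14 *Stat3* cKO level lay between the 2 E11 levels as deposited, and *Idh2* was the highest member in the other 3 libraries. *Idh3a*, the catalytic alpha subunit of the NAD-dependent isocitrate dehydrogenase, was at 18.1, 23.4, 69.7 and 44.2 FPKM. No other member spread as widely over the libraries as deposited: *Idh3a* made up 3.74% of the summed FPKM of the 9 genes in E11 WT, 4.37% in E11 *Stat3* cKO, 7.59% in E14 WT and 6.20% in E14 *Stat3* cKO. These shares are taken within a library, so no scaling between libraries alters them.

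At the oxoglutarate step, *Ogdh*, the E1 subunit of the oxoglutarate dehydrogenase complex, was at 13.4, 15.0, 16.8 and 14.2 FPKM in the same order. It was the lowest of the 9 genes in every library and, as deposited, the one whose levels spread least over the libraries, which did not hold with upper-quartile scaling or equal FPKM sums. *Dlst*, the lipoate-bearing E2 subunit that transfers the succinyl group to CoA, was at 40.5, 45.1, 79.4 and 59.9 FPKM. *Dlst* held the 5th place in all 4 libraries.

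Succinyl-CoA synthetase is the enzyme of the cycle that makes a nucleoside triphosphate. Its shared alpha subunit *Suclg1* was at 36.4, 44.2, 78.0 and 54.2 FPKM, and *Suclg2*, the beta subunit that makes the enzyme form GTP, was at 34.5, 39.2, 69.4 and 54.6 FPKM. The 2 genes lay next to each other in the order of levels or 1 place apart with *Idh3a* between them in E14 WT, and without replicates it cannot be said which neighbours in that order differ.

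*Fh1*, fumarate hydratase, was at 41.3, 47.7, 123 and 91.0 FPKM. *Mdh2*, the mitochondrial malate dehydrogenase that returns oxaloacetate to the cycle, was at 56.3, 58.8, 88.4 and 74.4 FPKM. The order of this pair differed between the stages: *Mdh2* was above *Fh1* in both E11 libraries (*Fh1* to *Mdh2* ratio 0.733 in WT and 0.810 in *Stat3* cKO) and below it in both E14 libraries (1.39 and 1.22).

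The first comparison asked how these genes differ between E11 and E14 progenitors of the same genotype. In WT, 4 of the 9 genes rose by at least 2-fold from E11 to E14, where 14.6% of all 12430 genes with a ratio did. *Idh3a* rose 3.84-fold, *Fh1* 2.98-fold, *Suclg1* 2.14-fold and *Suclg2* 2.01-fold. When the all-gene median was set to 0, with upper-quartile scaling and with equal FPKM sums, 2 of the 9 reached 2-fold, in each case *Idh3a* and *Fh1*. A ratio of 1.5 was reached by 7 of the 9 as deposited, and by 30.3% of all genes. Of the genes below 2-fold, *Dlst* stood at a ratio of 1.96, *Cs* at 1.81, *Mdh2* at 1.57, *Idh2* at 1.44 and *Ogdh* at 1.25. All 9 ratios were above 1 as deposited, against 60.5% of all genes, although *Ogdh* was below 1 with upper-quartile scaling and *Ogdh* and *Idh2* with equal FPKM sums.

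In *Stat3* cKO, 0 of the 9 genes reached 2-fold from E11 to E14, where 10.1% of all genes rose that far. *Fh1* came nearest with a ratio of 1.91, followed by *Idh3a* at 1.89 and *Cs* at 1.61, the 3 genes past 1.5-fold as deposited, which 21.6% of all genes were. The other ratios were 1.39 for *Suclg2*, 1.33 for *Dlst*, 1.27 for *Mdh2*, 1.23 for *Suclg1*, 0.965 for *Idh2* and 0.949 for *Ogdh*. Thus 7 genes were above 1 and 2 below as deposited, where 53.3% of all genes were above 1, but equal FPKM sums left 2 genes above 1 and 7 below.

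The median of the 9 log2 ratios was 0.97 in WT and 0.41 in *Stat3* cKO, beside 0.21 and 0.06 over all genes. Genes as abundant as the members, with a mean between 14.9 and 162 FPKM, had medians of 0.42 in WT and 0.19 in *Stat3* cKO, and 17.1% and 8.25% of them were higher by 2-fold. This set was likewise chosen with the data known. With equal FPKM sums the median of the 9 genes in *Stat3* cKO was -0.45, while in WT it was 0.42. The mesenchymal markers (4 genes, *Col1a1*, *Col1a2*, *Col3a1* and *Pdgfrb*) summed to 978 and 885 FPKM in the E11 libraries and to 11.4 and 8.28 in the E14 libraries, and their part in the stage difference of the TCA cycle genes was not tested. Other markers also moved with stage, and their part was not tested: from E11 to E14, radial glia markers (8 genes) went from 1547 to 7488 FPKM in WT and from 1705 to 8121 in *Stat3* cKO, largely through *Fabp7* (516 to 5245 in WT), while *Pax6* fell in both genotypes and *Hes1* was lower. Oligodendrocyte lineage markers (3 genes) went from 65.2 to 211 and from 84.4 to 216, with *Pdgfra* lower at E14 in both genotypes, and astrocyte markers (4 genes) from 10.6 to 84.6 and from 8.60 to 149. Neuron markers (6 genes) went from 687 to 1032 FPKM in WT and from 718 to 878 in *Stat3* cKO, with *Neurod6* rising 12.8-fold and 19.1-fold. Intermediate progenitor markers (3 genes) went from 96.6 to 65.3 FPKM in WT and from 116 to 110 in *Stat3* cKO. Of these, *Neurog2* fell in both genotypes, to 0.320 and 0.476 of its E11 level, and *Eomes* fell in *Stat3* cKO, to 0.494. *Btg2* was at 0.971 of its E11 level in WT and at 1.43 in *Stat3* cKO as deposited. Markers of proliferation (8 genes) summed to 550 FPKM in E11 WT and 1336 in E14 WT, and to 740 and 897 in *Stat3* cKO; their part was not tested either.

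**Figure D2:**
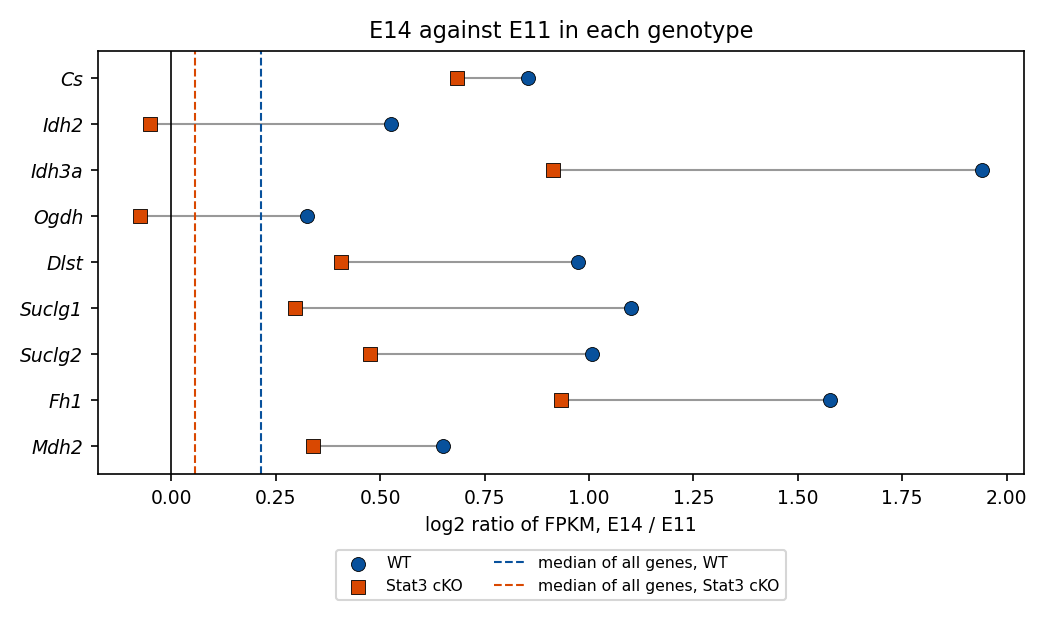
log2 ratio of FPKM, E14 to E11, for each of the 9 genes in WT (circles) and *Stat3* cKO (squares), with the median of all genes as a dashed line for each genotype. Every WT point lies to the right of its *Stat3* cKO partner, by 0.17 for *Cs* and 1.03 for *Idh3a* as deposited, and with upper-quartile scaling this holds for 8 of the 9 genes, with *Cs* as the exception.

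The second comparison asked how *Stat3* cKO differs from WT at each stage. At E14 all 9 genes had a lower level in *Stat3* cKO than in WT, and this direction held for all 9 under each of the 3 scalings. The ratios lay between 0.634 and 0.853, so 0 of the 9 reached 2-fold, where 1.69% of all genes were lower by 2-fold, and 60.1% of all genes and 69.7% of those as abundant as the members were below 1. *Idh3a* had the lowest ratio, 0.634, and was the single member lower by 1.5-fold as deposited, as 7.67% of all genes were. That count was 0 when the all-gene median was set to 0 and with upper-quartile scaling, and 2 with equal FPKM sums, where *Suclg1* passed as well. *Suclg1* followed at 0.695, *Fh1* at 0.738 and *Dlst* at 0.754. *Idh2* was at 0.778 and *Suclg2* at 0.787. The highest ratios were those of *Mdh2*, 0.842, *Ogdh*, 0.848, and *Cs*, 0.853.

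Over the 9 genes the E14 log2 ratios had a median of -0.36, beside -0.08 over all genes and -0.13 over the genes as abundant as the members. It was -0.21 with upper-quartile scaling. The 25th percentile was -0.29 over all genes, so the median member lay below it, whereas *Cs*, *Ogdh* and *Mdh2* lay above it. Proliferation markers moved with this comparison: 7 of 8 were lower in E14 *Stat3* cKO (beside 60.1% of all genes; the *Ccnb1* ratio was above 1 when the all-gene median was set to 0 and with upper-quartile scaling), their log2 ratios had a median of -0.80, and *Mcm3* and *Mcm6* fell by at least 2-fold, a call that *Mcm6* lost with upper-quartile scaling. All 6 neuron markers had ratios below 1 too, 0 of them by 1.5-fold as deposited and *Tubb3* above 1 with upper-quartile scaling, and stood at 1032 FPKM summed in WT and 878 in *Stat3* cKO, and the astrocyte markers summed to 84.6 and 149 FPKM (4 genes), mostly *Aldh1l1* at 78.6 and 136, while *Gfap* went the other way, at 0.901 and 0.186. Intermediate progenitor markers (3 genes) summed to 65.3 and 110 FPKM through *Btg2* (43.8 and 81.8) and *Neurog2* (13.0 and 20.9), while *Eomes* was lower (8.50 and 7.33). Within the radial glia list 6 of 8 genes had ratios above 1 as deposited, beside 39.9% of all genes. *Hes5* rose 2.37-fold, *Sox2* was at 1.38 and *Pax6* at 1.30, while *Nes* and *Slc1a3* were near 1, at 1.02 and 1.01. *Hes1* and *Vim* were at 0.630 and 0.809 of their WT level. Within the oligodendrocyte lineage list *Sox10* rose 3.05-fold, *Pdgfra* was at 1.70 and *Olig2* at 0.799. The part of these cells, and that of the sex difference between the 2 libraries, was not tested.

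At E11, 8 of the 9 genes had a higher level in the library labelled *Stat3* cKO and *Cs* a lower one, where 61.8% of all genes and 70.4% of those as abundant were above 1. As deposited, none of the 9 reached 1.5-fold, as 2.18% of all genes did upward, or 2-fold, as 0.209% did, and with equal FPKM sums *Idh3a* passed 1.5-fold at a log2 ratio of 0.60. *Idh3a* was again at the far end, with a ratio of 1.29, followed by *Suclg1* at 1.21 and *Idh2* at 1.16. *Fh1* stood at 1.15, *Suclg2* at 1.14, *Dlst* and *Ogdh* at 1.12, *Mdh2* at 1.04 and *Cs* at 0.961. The signs of the last 2 were not stable: *Mdh2* was below 1 with upper-quartile scaling and *Cs* above 1 with equal FPKM sums. The log2 ratios of the 9 had a median of 0.19, beside 0.06 over all genes and 0.09 over those as abundant, and it was 0.12 with upper-quartile scaling and 0.42 with equal FPKM sums. The 8 proliferation markers were all higher in this library, none by 1.5-fold as deposited, with log2 ratios of median 0.38. The neuron markers (6 genes) summed to 687 FPKM in E11 WT and 718 in E11 *Stat3* cKO. As deposited, 2 of their ratios were above 1 and 4 below, beside 38.2% of all genes below 1. *Neurod6* fell, from 8.14 to 3.76 FPKM, a call that was lost with equal FPKM sums. *Snap25* was at 0.803 of its WT level and *Dcx* at 0.836, while *Tubb3*, the most abundant of them, was at 1.10. Of the radial glia markers *Hes5* and *Nes* were at 1.55 and 1.54 times their WT level and *Slc1a3* at 0.762. The part of these markers was not tested.

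**Figure D3:**
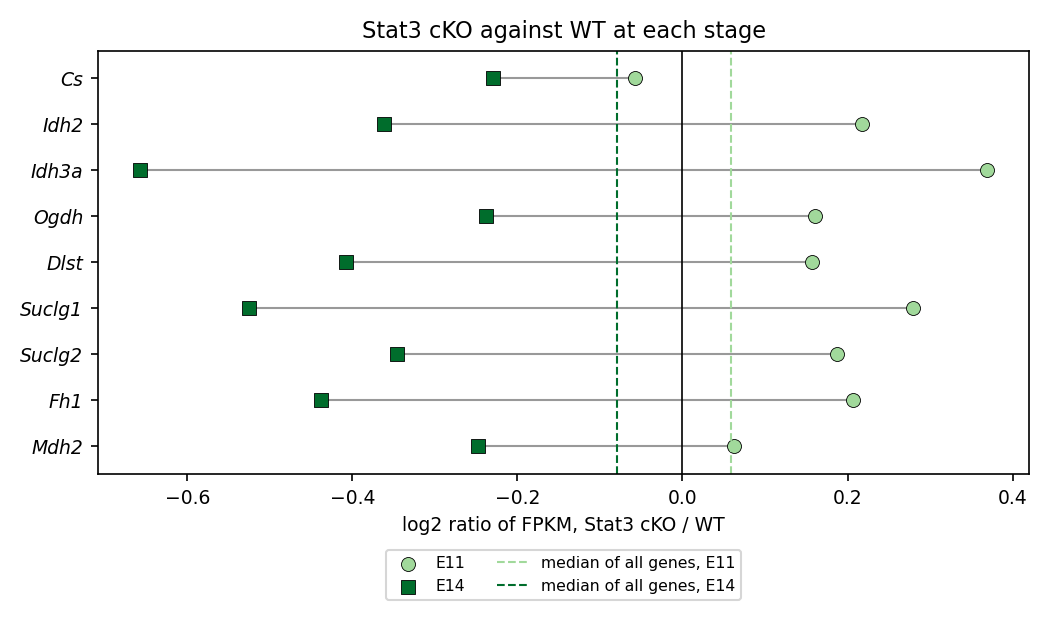
log2 ratio of FPKM, *Stat3* cKO to WT, for each of the 9 genes at E11 (circles) and E14 (squares), with the median of all genes at each stage as a dashed line. All 9 squares lie left of 0, also under the 3 scalings tried, and 8 of the 9 circles lie right of it, a count that was 7 with upper-quartile scaling and 9 with equal FPKM sums.

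The log2 ratio of *Stat3* cKO to WT was lower at E14 than at E11 for all 9 genes, and 62.1% of all genes and 74.1% of those as abundant as the members showed that direction. With upper-quartile scaling it held for 8, with *Cs* on the other side. The pair of signs seen in 8 of the 9, above 0 at E11 and below 0 at E14, was that of 38.7% of all genes. By arithmetic this difference is also the E14 to E11 log2 ratio in *Stat3* cKO minus that in WT, so it adds no measurement to the 4 levels of a gene. It was -1.03 for *Idh3a*, -0.80 for *Suclg1*, -0.64 for *Fh1* and -0.58 for *Idh2*. *Cs* had the smallest difference, -0.17, followed by *Mdh2* at -0.31 and *Ogdh* at -0.40. The median was -0.565, beside -0.12 over all genes and -0.21 over those as abundant as the members. For the members it was -0.344 with upper-quartile scaling and -0.868 with equal FPKM sums. In FPKM, *Fh1* was 82.0 higher at E14 than at E11 in WT and 43.3 higher in *Stat3* cKO, and *Idh3a* 51.5 and 20.7 higher, as deposited. For *Idh2* the same subtraction gave 60.7 in WT and -5.64 in *Stat3* cKO.

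Levels of subunits that work in 1 enzyme were also set side by side within each library, which no scaling between libraries can alter. The NAD-dependent isocitrate dehydrogenase consists of alpha, beta and gamma subunits, encoded by *Idh3a*, *Idh3b* and the X-linked *Idh3g*. *Idh3b* was at 72.0 FPKM in E11 WT, 72.5 in E11 *Stat3* cKO and 104 in both E14 libraries. *Idh3a* stood at 0.252 of *Idh3b* in E11 WT, 0.323 in E11 *Stat3* cKO, 0.673 in E14 WT and 0.425 in E14 *Stat3* cKO. Against *Idh3g*, at 53.5, 58.0, 78.0 and 93.5 FPKM, the ratio of *Idh3a* was 0.339, 0.404, 0.893 and 0.472. *Idh3b* to *Idh3g*, by contrast, lay between 1.11 and 1.35 in all 4 libraries. The alpha subunit was thus below both partners in every library and nearest to them in E14 WT.

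The oxoglutarate dehydrogenase complex is built from *Ogdh* (E1), *Dlst* (E2) and *Dld* (E3), the last of which it shares with pyruvate dehydrogenase. *Ogdh* stood at 0.331 and 0.332 of *Dlst* in the E11 libraries and at 0.211 and 0.238 in the E14 libraries. *Dlst* to *Dld* was 0.839 and 0.851 at E11 and 1.16 and 1.13 at E14. In both ratios the 2 libraries of a stage lay closer to each other than to either library of the other stage. The E1 paralog *Ogdhl* was at 11.0, 12.2, 12.0 and 14.9 FPKM, below *Ogdh* except in E14 *Stat3* cKO, where *Ogdh* to *Ogdhl* was 0.958.

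Succinyl-CoA synthetase pairs *Suclg1* with *Suclg2* or with *Sucla2*, the beta subunit that makes it form ATP. *Suclg1* to *Suclg2* was 1.06, 1.13, 1.12 and 0.994, and *Suclg2* to *Sucla2* was 0.788, 0.849, 0.820 and 0.825, in the usual order of libraries. *Suclg1* to *Sucla2* was 0.831, 0.955, 0.922 and 0.820. Each of these 3 ratios varied less over the libraries than those of *Idh3a* to *Idh3b* and to *Idh3g*. *Suclg1* was lower against either beta subunit in E14 *Stat3* cKO than in E14 WT. *Sucla2* itself was at 43.8, 46.2, 84.6 and 66.2 FPKM.

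**Figure D4:**
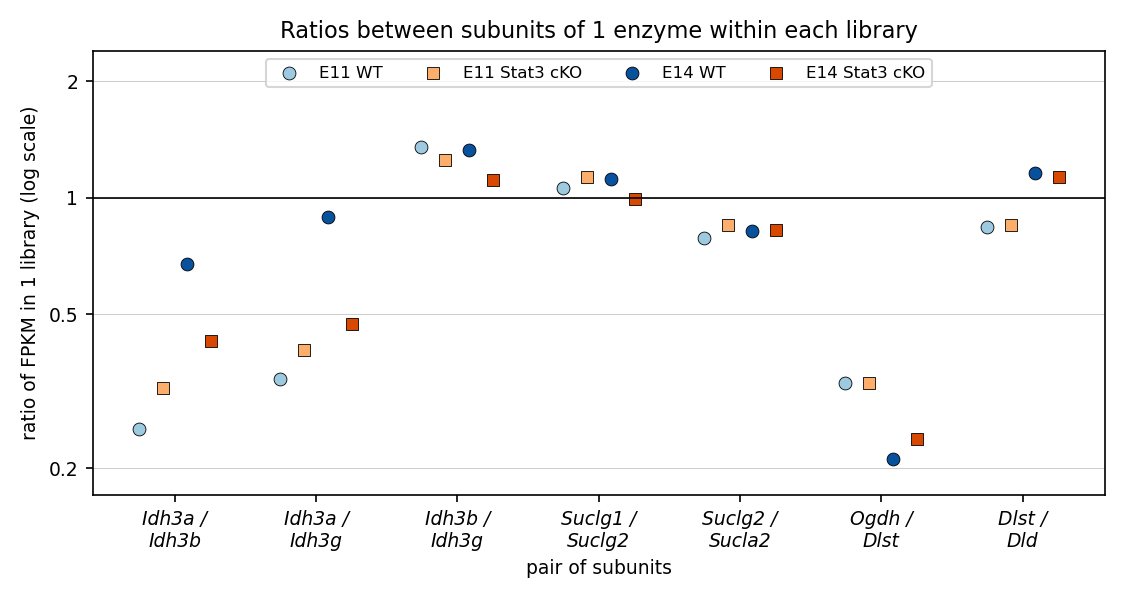
Ratio of FPKM between subunits of 1 enzyme within each library (log axis), with a line at 1 and 1 point per library. The ratios of *Idh3a* to *Idh3b* and to *Idh3g* run from 0.252 to 0.893 with E14 WT highest, while *Idh3b* to *Idh3g*, *Suclg1* to *Suclg2* and *Suclg2* to *Sucla2* stay between 0.788 and 1.35.

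Members with a cytosolic counterpart can be read in the same way. *Mdh2* was 0.558 and 0.478 of the cytosolic *Mdh1* in the E11 libraries and 0.288 and 0.270 of it in the E14 libraries. *Idh2* was 0.942 and 0.758 of *Idh1*, which makes oxoglutarate in the cytosol and peroxisome, at E11 and 0.570 and 0.452 of it at E14. In both pairs the cytosolic gene had the higher level in every library, and by more at E14. *Cs* to *Acly*, the cytosolic enzyme that splits citrate, was 1.06 in E11 WT, 0.737 in E11 *Stat3* cKO, 1.44 in E14 WT and 1.46 in E14 *Stat3* cKO.

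A further 8 subunits of the cycle's enzymes (*Idh3b*, *Idh3g*, *Dld*, *Sucla2*, *Sdha*, *Sdhb*, *Sdhc* and *Sdhd*) gave a comparison within the same pathway. Of these, 3 rose by at least 2-fold from E11 to E14 in WT (*Sdhd* 2.93-fold, *Sdhb* 2.44-fold, *Sdhc* 2.07-fold) and 2 in *Stat3* cKO (*Sdhd* 2.03-fold, *Sdhb* 2.02-fold), beside the 14.6% and 10.1% of all genes. These calls depended on the scaling: in *Stat3* cKO 0 of the 8 reached 2-fold under each of the 3 scalings, and in WT the count was 2 when the all-gene median was set to 0, 1 with upper-quartile scaling and 0 with equal FPKM sums. Succinate dehydrogenase, to which the 4 Sdh subunits belong, is also complex II of the respiratory chain. In *Stat3* cKO against WT at E14, 6 of the 8 were below 1, beside 60.1% of all genes and 69.7% of those as abundant as the members, and 2 above, with *Idh3g* and *Idh3b* at log2 ratios of 0.26 and 0.01, and none reached 2-fold. Their log2 ratios had a median of -0.19, which lay between -0.04 and -0.26 under the scalings, beside -0.36 for the 9 genes described here. At E11 all 8 were above 1 as deposited, beside 61.8% of all genes, with a median of 0.13, and 6 were with upper-quartile scaling.

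Upstream of *Cs*, the genes of pyruvate entry (7 genes, the pyruvate dehydrogenase subunits *Pdha1*, *Pdhb*, *Dlat* and *Pdhx*, the pyruvate carboxylase *Pcx*, and the pyruvate carrier subunits *Mpc1* and *Mpc2*) included *Pcx*, which had the highest E14 to E11 ratio in both genotypes among the genes tested in the 6 pathway lists. *Pcx* was at 6.35 FPKM in E11 WT, 41.4 in E14 WT and 57.0 in E14 *Stat3* cKO, stood at 1.42 times its E11 control in E11 *Stat3* cKO, and rose 6.53-fold in WT and 6.34-fold in *Stat3* cKO. *Mpc1* was at 30.7, 31.2, 167 and 153 FPKM, a rise of 5.42-fold and 4.89-fold. In all, 4 of the 7 rose by 2-fold in WT and 3 in *Stat3* cKO, beside the 14.6% and 10.1% of all genes, and 2 in each genotype under each of the 3 scalings. Against WT at E14, 0 of the 7 reached 2-fold in *Stat3* cKO, with 6 below 1, beside 60.1% of all genes, and *Pcx* at 1.38, and the median of -0.13 turned to 0.03 with upper-quartile scaling.

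Around the cycle, the carriers and anaplerotic enzymes (9 genes) had 8 of 9 ratios above 1 with stage in WT as deposited, beside 60.5% of all genes, a count that was 4 with equal FPKM sums. Against WT at E14, 7 of the 9 were below 1, beside 60.1% of all genes, and 5 were when the all-gene median was set to 0 and with upper-quartile scaling. The lowest of these ratios were 0.589 for *Slc25a13*, an aspartate and glutamate carrier, and 0.702 for *Got1*, the cytosolic aspartate aminotransferase. *Glud1*, glutamate dehydrogenase, was at 52.8, 51.3, 76.7 and 144 FPKM, which set E14 *Stat3* cKO above the other 3 libraries, and it rose 2.80-fold from E11 to E14 in *Stat3* cKO as deposited, a call that was lost with equal FPKM sums. Its ratio to WT at E14, 1.87, passed 2 with upper-quartile scaling. *Pck2*, the mitochondrial phosphoenolpyruvate carboxykinase, was at 35.1, 15.6, 6.21 and 7.24 FPKM and fell with stage in both genotypes, to 0.177 of its E11 level in WT and 0.465 in *Stat3* cKO. It was also lower in E11 *Stat3* cKO than in E11 WT by more than 2-fold, with a ratio of 0.444, a call that was lost with equal FPKM sums.

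Of the kinases and phosphatases that switch pyruvate dehydrogenase (6 of 7 tested), 0 reached 2-fold between genotypes at either stage as deposited, and *Pdk2* came nearest, at a ratio of 1.96 at E14, which passed 2 when the all-gene median was set to 0 and with upper-quartile scaling. *Pdk4* was left out for its low mean, being below 0.5 FPKM in 3 libraries and highest in E14 *Stat3* cKO. The 3 genes of lipoylation, the modification that *Dlst* and *Dlat* need, were all below 1 at E14, beside 60.1% of all genes, with *Lipt2* at 0.606, *Lipt1* at 0.788 and *Lias* at 0.920, and with upper-quartile scaling *Lias* was above 1. The isozymes outside the cycle (8 of 9 tested) had log2 ratios with a median of -0.17 at E14 and 0.28 at E11, and 0 of them reached 2-fold between genotypes. The E14 median was -0.016 with upper-quartile scaling, and the E11 median was 0.515 with equal FPKM sums.

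**Figure D5:**
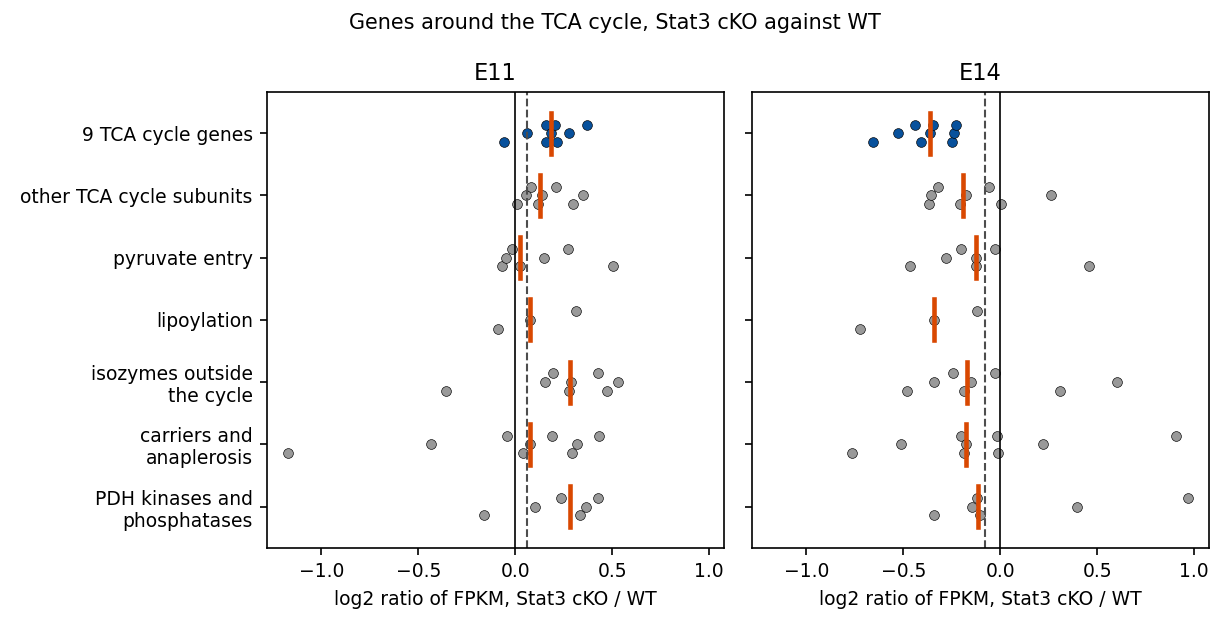
log2 ratio of FPKM, *Stat3* cKO to WT, at E11 (left) and E14 (right) for the 9 TCA cycle genes (blue) and 6 other lists (grey), with 1 point per gene, an orange bar at the median of each list, a line at 0 and a dashed line at the median of all genes. The median of the 9 genes is 0.19 at E11 and -0.36 at E14; the medians of pyruvate entry at both stages and of the PDH kinases and phosphatases at E14 change sign with upper-quartile scaling.

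Other nuclear genes of the mitochondrion were listed by symbol for the same comparison at E14. Median log2 ratios were -0.10 over 37 complex I subunits (27 below 0), -0.12 over 41 subunits of complexes III, IV and V (31 below 0) and -0.27 over 74 mitochondrial ribosomal proteins (71 below 0), beside the 60.1% of all genes and 69.7% of those as abundant as the members that were below 0. With upper-quartile scaling the first 2 medians turned positive and that of the ribosomal proteins was -0.116. With stage in WT the 3 lists had medians of 1.01, 1.07 and 0.93, beside 0.97 for the 9 genes. Equal FPKM sums made these 0.452, 0.515 and 0.379, beside 0.42. In *Stat3* cKO the medians with stage were 0.85, 0.83 and 0.53, beside 0.41, all 4 of which were negative with equal FPKM sums. Whether the 9 genes differ from these lists could not be tested.

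The comparison of profiles took in 9191 genes, those at 5 FPKM or more on average and never at 0. Outside the members and the written lists, the 5 whose centred log2 levels over the 4 libraries lay nearest to the mean profile of the 9 genes were *Ccnh*, *Msl3*, *B230118H07Rik*, *Psmg2* and *Arhgdia*, at Euclidean distances of 0.0145 to 0.0458. *Ccnh* was at 16.9, 19.3, 33.9 and 25.7 FPKM. Of the members, *Dlst* lay closest to their own mean profile, at 0.0336, and *Idh3a* farthest, at 0.7511. With 4 libraries such likeness is a description of 4 values.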

How the data were processed

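Total RNA of 4 libraries was sequenced on an Illumina HiSeq system. The authors checked reads with FastQC, aligned them with TopHat and estimated levels with Cufflinks, and deposited FPKM values per gene; the submitters' notes also name Bowtie 0.12.2 and the builds mm8 and mm9, and the annotation is not given in the sources used here. FPKM corrects for transcript length and mapped fragments, so a few abundant genes can lower all others in a library. Groups came from the sample titles. Plain ratios of FPKM without a pseudocount were taken for entries with a mean of at least 1 FPKM, a gene at 0 in either library had no ratio, and a ratio of 2 was a call. Alternatives were pseudocounts of 0.1 and 1, the median of all genes set to 0, upper-quartile scaling, equal FPKM sums, a minimum mean of 5 FPKM or none, and thresholds of 1.5 and 3. The members and lists were chosen with earlier results of these data known. Genes named were the members, the genes of the written lists, *Stat3*, *Ddx3y*, *Xist*, marker genes and the 5 closest profiles; *Csl* was added after its values were seen. Hemoglobin genes, which the files join in shared entries, were not matched as erythroid markers, and *Alas2* was at 0.0430 to 0.295 FPKM. A planned comparison of protein sequences was not made, and some genes of the lists are not reported here. The steps were tested on simulated data. Python 3.11.15, numpy 2.4.6, pandas 2.3.3 and matplotlib 3.10.9 were used.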

Additional observations from a re-analysis of the deposited data

Results flagged for a closer look

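For 8 of the 9 genes, the E14 library of *Stat3* cKO lay below its control and the E11 library labelled *Stat3* cKO above its own, and these are listed because the sign differed between the stages. The difference of the log2 ratios, E14 minus E11, was -1.026 for *Idh3a*, -0.804 for *Suclg1*, -0.644 for *Fh1* and -0.579 for *Idh2*. It was -0.565 for *Dlst*, -0.533 for *Suclg2*, -0.399 for *Ogdh* and -0.310 for *Mdh2*. With 1 library per group the difference was not tested, and 38.7% of all genes, and 50.1% of those as abundant as the members, had the same pair of signs. For *Mdh2* the E11 value was -0.007 with upper-quartile scaling, which removes the change of sign. Only *Cs* was below 1 at both stages as deposited, with ratios of 0.961 and 0.853.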

How the results depend on the processing

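Pseudocounts of 0.1 and 1 moved each of the 36 log2 ratios (9 genes, 4 comparisons) by less than 0.1 and turned no sign. The minimum means tried could not change the members' medians, because the lowest member mean, that of *Ogdh*, was 14.9 FPKM. Setting the median of all genes to 0 gave a median of 0.758 for E14 to E11 in WT and -0.428 for the difference between the stages. Upper-quartile scaling gave -0.209 for *Stat3* cKO to WT at E14, 0.602 for E14 to E11 in WT, 0.259 in *Stat3* cKO and -0.344 for the difference, and reversed *Ogdh* with stage in WT (-0.046) and *Mdh2* between genotypes at E11 (-0.007). Equal FPKM sums gave 0.421 for *Stat3* cKO to WT at E11, 0.417 for E14 to E11 in WT, -0.868 for the difference and a reversed -0.450 for E14 to E11 in *Stat3* cKO. They also reversed *Cs* between genotypes at E11 (0.177), *Idh2* (-0.028) and *Ogdh* (-0.231) with stage in WT, and, with stage in *Stat3* cKO, *Cs* (-0.174), *Dlst* (-0.450), *Suclg1* (-0.562), *Suclg2* (-0.382) and *Mdh2* (-0.518). A scaling adds 1 constant to every ratio of a comparison, between -0.858 and 0.234 here. The count of members higher by 2-fold from E11 to E14 in WT, 4 as deposited, was 2 under each of the 3 scalings and 3 with a pseudocount of 1, which put *Suclg2* below 2-fold. At a threshold of 1.5 there were 7 in WT, 3 in *Stat3* cKO and 1 for *Stat3* cKO to WT at E14, and at a threshold of 3 there was 1 in WT. No paired analysis was possible because each group has 1 library and the labels give no replicate numbers, and no library could be left out. Depth was unknown, so no limit from counting could be set.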
